A study of Mus musculus with 6 samples.

Results

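YAP and TAZ are the coactivators at the end of the Hippo pathway, and the genes described here are 10 of its effectors and targets: the coactivator genes Yap1 and Wwtr1 (TAZ), the genes of their DNA-binding partners Tead1, Tead2, Tead3 and Tead4, and Ankrd1, Amotl2, Lats2 and Ajuba. They were taken by name from the 48526 genes of the count tables, with symbols from GENCODE release M21. The rule itself uses no measured value, but the genes were proposed with earlier results of these data known. RNA-seq was done on primary cultures of mouse renal tubular epithelium. The 3 KO libraries, which lack SETD2, are from Setd2(F/F)Ksp-Cre+ animals, and the 3 WT libraries are from Setd2(F/F) littermates. All the mice carried floxed Setd2 and were 4 to 5 weeks old, and all the cultures, made from kidney cortex, were kept in medium with 20 ng/ml EGF and 100 nM hydrocortisone. Setd2 encodes the methyltransferase that makes the trimethyl mark on lysine 36 of histone H3. The Ksp promoter is that of the cadherin gene Cdh16 and drives Cre in kidney tubule epithelium, and because the WT cultures lacked Cre, its own effect cannot be told apart from that of Setd2 deletion.

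In the Hippo pathway, the kinases MST1 and MST2 activate LATS1 and LATS2, which phosphorylate YAP and TAZ and hold them out of the nucleus. Unphosphorylated YAP and TAZ enter the nucleus and bind TEAD proteins, which recognise the motif GGAATG, and so raise genes of growth, matrix and cytoskeleton. In cultured epithelium a stiff substrate, low cell density and actin tension are known to activate them, and in the kidney they are known for roles in tubule development and in repair after injury. Several of their targets, Lats2 and Amotl2 among them, encode inhibitors of YAP and TAZ. Phosphorylation and nuclear entry are not seen in transcript counts, so the values below are levels of RNA and not of YAP or TAZ activity.

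The promoters of the coactivators and of known targets are shown because TEAD proteins recognise a short motif that can be looked for in them. RefSeq promoters were matched for 8 of the 10 genes, and the 250 bases before each annotated start were searched for GGAATG on both strands. At least 1 match was found for 6 of the 8 genes, or 75.0%, and in 8 of their 12 windows, or 66.7%. In the whole RefSeq table these shares were 14.4% of the 27025 genes and 12.6% of the 32851 promoter windows. Windows of the same gene can overlap, and both Wwtr1 windows hold the same site, so it counts in each of them. Of the 30 reported target genes listed further below, 18 had a window and 7 of these held the motif. Of the 47 listed Hippo regulators, 37 had a window and 10 of these held it, or 27.0%. The matches lay 141 bases before the start in Yap1, 136 in Wwtr1, 65 in Amotl2 and 103 in Ccn1, 210 and 123 in Ankrd1, and 186 and 164 in Ajuba. Tead3 also had matches, and neither Lats2 window nor the Tead2 window held these letters. A match describes the letters and does not show a bound site. Each sequence is the 250 bases before the start (RefSeq, GRCm38.p6), 5′ to 3′ on the strand of the gene, with GGAATG or its reverse complement CATTCC in capitals. The windows are chr9:8004597-8004846, minus strand, for Yap1, chr3:57575911-57576160, minus strand, for Wwtr1, chr19:36119845-36120094, minus strand, for Ankrd1, chr9:102717554-102717803, plus strand, for Amotl2, chr14:54577662-54577911, minus strand, for Ajuba, and chr3:145649986-145650235, minus strand, for Ccn1.
Yap1: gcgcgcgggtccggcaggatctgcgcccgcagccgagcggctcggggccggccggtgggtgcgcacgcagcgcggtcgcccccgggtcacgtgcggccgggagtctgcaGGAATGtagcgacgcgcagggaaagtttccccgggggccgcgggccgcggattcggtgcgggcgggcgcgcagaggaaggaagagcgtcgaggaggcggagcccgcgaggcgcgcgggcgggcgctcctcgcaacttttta
Wwtr1: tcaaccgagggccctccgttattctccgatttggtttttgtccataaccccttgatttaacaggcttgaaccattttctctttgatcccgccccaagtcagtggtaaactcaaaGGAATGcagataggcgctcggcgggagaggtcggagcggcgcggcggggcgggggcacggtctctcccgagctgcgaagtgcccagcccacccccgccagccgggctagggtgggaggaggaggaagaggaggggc
Ankrd1: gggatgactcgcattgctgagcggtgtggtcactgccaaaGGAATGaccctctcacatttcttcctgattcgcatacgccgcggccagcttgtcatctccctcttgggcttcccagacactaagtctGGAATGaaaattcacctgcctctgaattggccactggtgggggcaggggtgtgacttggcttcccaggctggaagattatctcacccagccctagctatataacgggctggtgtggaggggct
Amotl2: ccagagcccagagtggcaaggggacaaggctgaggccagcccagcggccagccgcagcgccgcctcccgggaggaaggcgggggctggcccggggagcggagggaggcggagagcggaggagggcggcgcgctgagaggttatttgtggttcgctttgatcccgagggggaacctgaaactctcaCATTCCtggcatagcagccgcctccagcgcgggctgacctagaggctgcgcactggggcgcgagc
Ajuba: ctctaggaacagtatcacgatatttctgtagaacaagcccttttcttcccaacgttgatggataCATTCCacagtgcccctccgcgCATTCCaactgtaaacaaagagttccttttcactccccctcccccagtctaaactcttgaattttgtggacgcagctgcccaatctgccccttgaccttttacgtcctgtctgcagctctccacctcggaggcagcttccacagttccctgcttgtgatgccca
Ccn1: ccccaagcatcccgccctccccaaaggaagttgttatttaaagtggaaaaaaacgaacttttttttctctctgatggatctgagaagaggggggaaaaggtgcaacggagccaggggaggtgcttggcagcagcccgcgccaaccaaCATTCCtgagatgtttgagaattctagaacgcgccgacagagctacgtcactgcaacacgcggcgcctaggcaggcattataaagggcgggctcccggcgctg

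The libraries held 86078636 to 106974842 counted reads each, and the 10 genes had 1115 to 53436 reads per library. Whether each replicate had its own animal is not stated. The p-values therefore set the group difference against how far the libraries vary, and that variation may be technical. Setd2 was at 163.4, 153.7 and 158.5 CPM (read counts relative to library size, with TMM scaling) in KO replicates 1 to 3, against 184.5, 167.8 and 152.0 CPM in WT replicates 1 to 3. Its groups overlapped, and a count over all exons does not check a deletion of some of them. Tubular epithelial markers (Cdh16, Epcam, Cdh1, keratins and others, 12 in all) summed to 7270.4 to 7337.6 CPM in KO libraries and 6324.4 to 7350.0 CPM in WT libraries, with Slc34a1 and Aqp2 below 0.2 CPM in every library. Xist, the RNA of the inactive X chromosome, was abundant in KO replicates 2 and 3 (507 and 606 CPM) and close to absent in KO replicate 1 and the WT libraries (0.348 to 0.683 CPM). The labels give no sex. Among the 10 genes and the listed regulators and targets, the adjusted p without those 2 libraries is given where a call depends on them. It is not given for the cell type markers or for the genes most correlated with Yap1, Wwtr1 and Ankrd1.

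Yap1 was the coactivator gene that fell in KO, whereas the values of Wwtr1 were higher in KO without passing the test. Yap1 (ENSMUSG00000053110, mm10, with all coordinates from GENCODE M21, chromosome 9, 7931999 to 8004596) had 134.2, 141.5 and 130.5 CPM in KO libraries, against 168.2, 157.0 and 158.1 CPM in WT libraries. All KO values lay below all WT values. On the log2 scale the difference was -0.25 ± 0.07 (SE), with a Benjamini-Hochberg adjusted p of 0.0262 from edgeR's quasi-likelihood test over 17571 genes, so that Yap1 RNA fell by 15.9% in KO (95% interval of the log2 fold change -0.40 to -0.10). Yap1 was the only 1 of the 10 genes past the adjusted threshold of 0.05, a share of 10.0% beside 21% of all tested genes, of which 12% were higher and 9.08% lower in KO. That call ended in several refits while the fold change stayed between -0.28 and -0.21: its adjusted p was 0.132 without KO replicate 1, 0.0507 without KO replicate 2, 0.113 without KO replicate 3 and 0.0542 without WT replicate 2. It was 0.188 when Xist status (above 10 CPM or not) entered the model, and 0.291 when both Xist-positive libraries were dropped.

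Wwtr1 (ENSMUSG00000027803, chromosome 3, 57455649 to 57575910), the TAZ gene, had 135.6, 134.4 and 144.9 CPM in KO libraries, against 124.5, 126.8 and 106.9 CPM in WT libraries. The groups did not overlap here either, with KO on the higher side. Its log2 fold change of 0.21 ± 0.08 (SE) had an edgeR adjusted p of 0.082 and a 95% interval of 0.04 to 0.39 before adjustment for the number of genes tested. Wwtr1 was thus not called, and only 1 of the 16 alternatives called it (edgeR adjusted p = 0.0361 without WT replicate 1). The adjusted p was 0.404 with the Xist term, 0.259 without KO replicate 3 and 0.192 without WT replicate 3. The Yap1 to Wwtr1 ratio of per-length levels, chosen after these values were seen, does not depend on library scaling. It was 0.511, 0.544 and 0.465 in KO libraries and 0.697, 0.639 and 0.764 in WT libraries. The means were 0.506 ± 0.0395 in KO and 0.700 ± 0.0622 in WT (SD, n = 3 each), and every KO ratio lay below every WT ratio. That separation follows from the values of both genes and is given as a description.

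**Figure D1:**
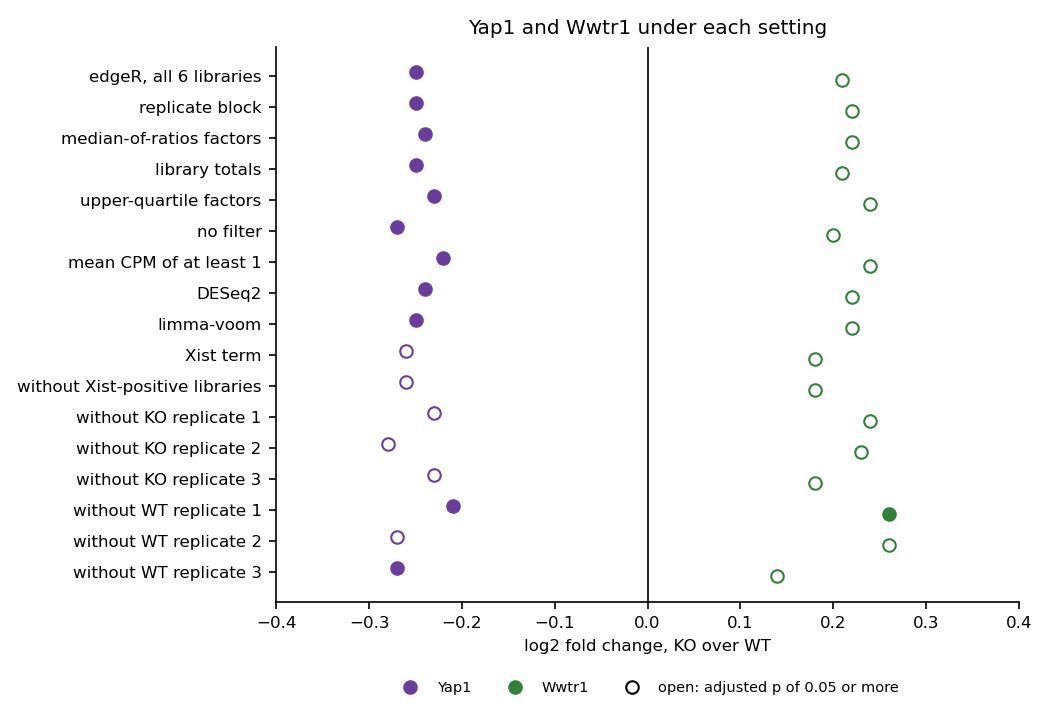
Log2 fold change of Yap1 and Wwtr1 (KO over WT, x axis) in the fit of all 6 libraries and under each of the 16 alternative settings (y axis), filled where the adjusted p is below 0.05. Yap1 stays between -0.28 and -0.21 and Wwtr1 between 0.14 and 0.26, while the calls differ between settings.

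No TEAD gene passed the test with edgeR, DESeq2 or limma-voom, and 0 of the 4 had an unadjusted edgeR p below 0.05. Tead1 (ENSMUSG00000055320, chromosome 7, 112679318 to 112906807), a TEAD factor known from heart and muscle, had 493.6, 486.8 and 485.4 CPM in KO libraries, against 541.7, 499.6 and 474.8 CPM in WT libraries. The KO values lay within the WT range, and the log2 fold change was -0.05 ± 0.08 (SE). Its 95% interval of -0.21 to 0.12 covers 0.862-fold to 1.08-fold.

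Tead2 (ENSMUSG00000030796, chromosome 7, 45215753 to 45233644), known for its expression in the early embryo, had 71.9, 72.5 and 79.7 CPM in KO libraries, against 71.0, 91.8 and 88.1 CPM in WT libraries. Tead3 (ENSMUSG00000002249, chromosome 17, 28331671 to 28350817), known from placenta, had 12.9, 15.5 and 15.2 CPM in KO libraries, against 12.9, 18.8 and 17.7 CPM in WT libraries. In both genes WT replicate 1 lay with the KO libraries and apart from the other WT libraries. The log2 fold changes were -0.16 ± 0.10 and -0.18 ± 0.14 (SE), with edgeR adjusted p-values of 0.249 and 0.363. Without WT replicate 1 they were -0.26 (adjusted p = 0.0196) for Tead2 and -0.32 (adjusted p = 0.040) for Tead3. This was the only 1 of the 16 alternatives that called either gene. Without WT replicate 2 the log2 fold changes were -0.09 (adjusted p = 0.592) for Tead2 and -0.07 (adjusted p = 0.77) for Tead3.

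Tead4 (ENSMUSG00000030353, chromosome 6, 128224288 to 128300823), needed for the trophectoderm of the mouse embryo, had 51.5, 52.1 and 49.4 CPM in KO libraries, against 47.2, 46.8 and 46.2 CPM in WT libraries. The groups did not overlap, but the difference was small, with a log2 fold change of 0.13 ± 0.07 (SE) and an edgeR adjusted p of 0.225. Of the summed per-length level of the 4 TEAD genes, Tead4 made up 20.1% to 21.3% in KO libraries and 18.1% to 18.8% in WT libraries. Tead1 made up 52.3% to 53.8% in KO and 50.8% to 57.2% in WT, Tead2 22.2% to 24.3% in KO and 21.3% to 26.7% in WT, and Tead3 2.85% to 3.41% in KO and 2.76% to 3.91% in WT. Tead3 was the least of the 4 in every library.

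**Figure D2:**
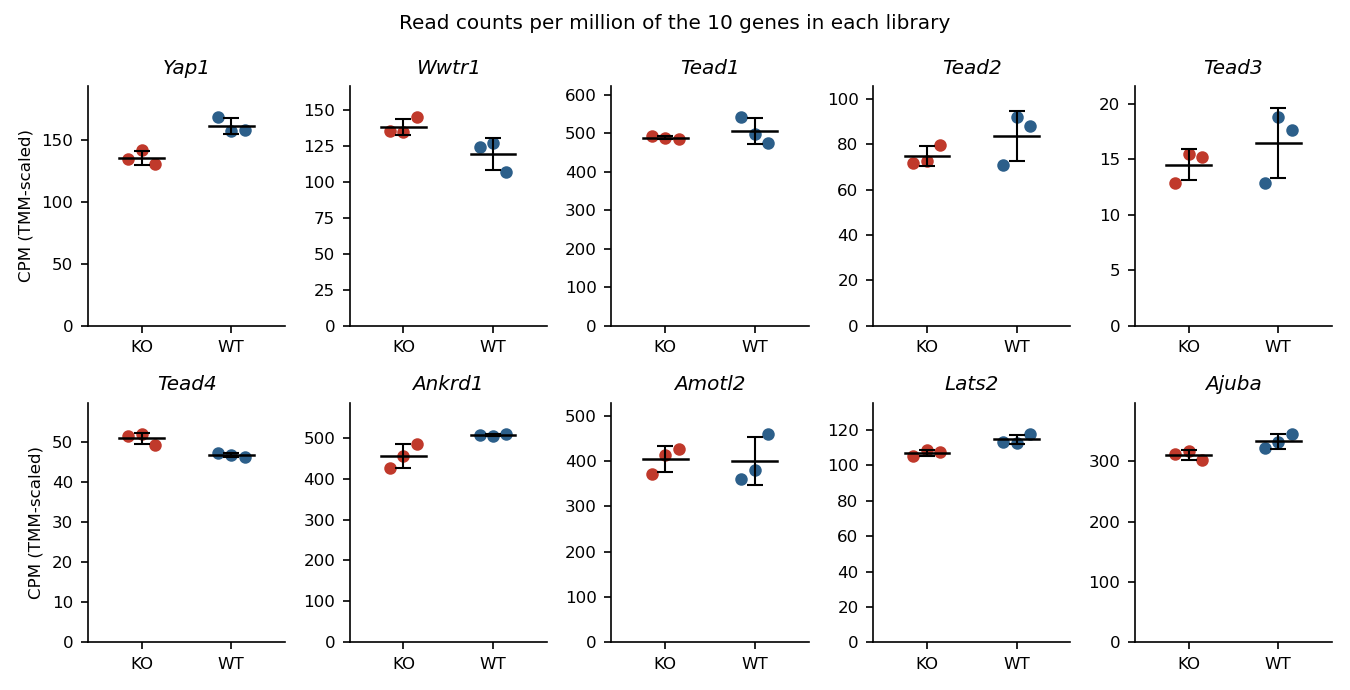
TMM-scaled CPM (y axis, from 0) of each of the 10 genes in the 3 KO and 3 WT libraries. Points are libraries, long bars are means and error bars are SD. KO and WT points do not overlap in 6 of the 10 panels, beside 41.9% of all tested genes. The distances between groups are small beside the levels.

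Ankrd1, Amotl2 and Lats2 are widely used readouts of YAP and TAZ, and none of them passed the test with any of these 3 tools or had an unadjusted edgeR p below 0.05. Ankrd1 (ENSMUSG00000024803, chromosome 19, 36111961 to 36120099), which encodes a nuclear and sarcomeric ankyrin repeat protein, had 424.8, 454.2 and 484.6 CPM in KO libraries, against 507.0, 503.1 and 509.3 CPM in WT libraries. The KO libraries spread more widely (454.6 ± 29.9 CPM) than the WT libraries (506.4 ± 3.15 CPM; SD, n = 3 each), and all lay below them. This gave a log2 fold change of -0.16 ± 0.08 (SE) and, in edgeR, an adjusted p of 0.160. Amotl2 (ENSMUSG00000032531, chromosome 9, 102716672 to 102733418), an angiomotin that binds YAP at junctions and actin, had 371.2, 413.8 and 426.8 CPM in KO libraries, against 361.5, 380.1 and 460.2 CPM in WT libraries. Its groups overlapped fully, with a log2 fold change of 0.01 ± 0.10 (SE) and a 95% interval of -0.20 to 0.23.

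Lats2 (ENSMUSG00000021959, chromosome 14, 57689662 to 57758388), the gene of a kinase that inhibits YAP and TAZ, had 105.3, 108.6 and 107.6 CPM in KO libraries, against 113.4, 112.6 and 117.8 CPM in WT libraries. Ajuba (ENSMUSG00000022178, chromosome 14, 54567472 to 54577558), a LIM protein of cell junctions that binds and inhibits LATS kinases, had 312.7, 317.2 and 301.5 CPM in KO libraries, against 322.2, 331.5 and 345.7 CPM in WT libraries. KO values were below all WT values in both genes, by small margins. The log2 fold change was -0.10 for each (SE 0.06 for Lats2 and 0.07 for Ajuba), with edgeR adjusted p-values of 0.305 and 0.319. In GENCODE M21 42.4% of the Lats2 exon sequence also belongs to the gene model Gm49361 on the same strand, which is not among the gene IDs of the count tables, so its reads and those of Lats2 cannot be told apart.

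Across the 10 genes, KO and WT libraries did not overlap for 6 (Yap1, Wwtr1, Tead4, Ankrd1, Lats2 and Ajuba), or 4 lower and 2 higher, whereas 41.9% of all tested genes had groups that did not overlap. The median log2 fold change was -0.10, beside -0.01 over all tested genes. All 10 passed the filter on low counts, and the 9 that were not called had edgeR adjusted p-values of 0.082 to 0.945. DESeq2 and limma-voom each called 1 of the 10 as well, again Yap1.

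**Figure D3:**
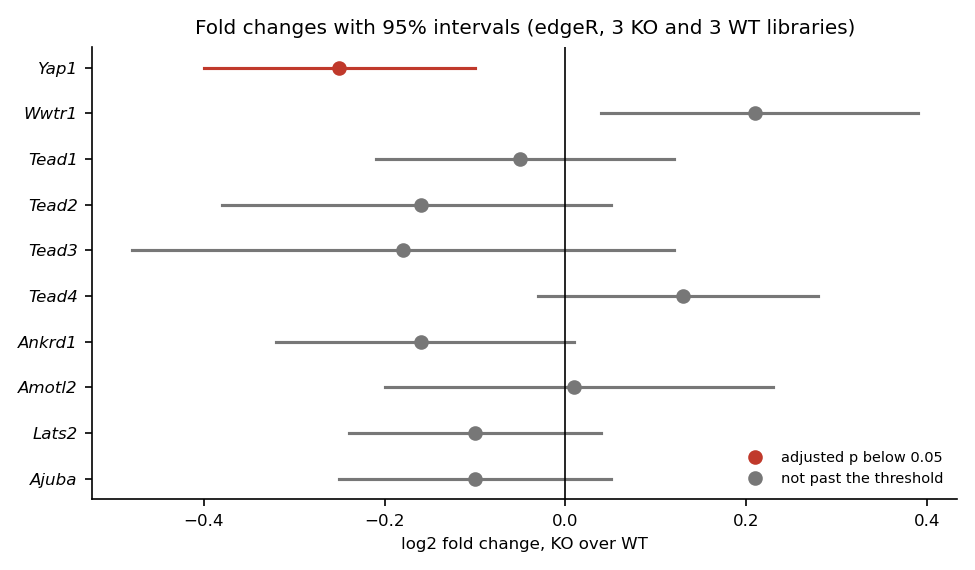
Log2 fold change (KO over WT, x axis) of the 10 genes with 95% intervals from the edgeR fit, before adjustment for the number of genes. Yap1 at -0.25 is past the adjusted threshold; Wwtr1 at 0.21 has an interval above 0 but is not, and Amotl2 and Tead1 lie close to 0.

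Levels between genes were compared per length, in TPM (reads per base of merged exon, scaled to the same total in every library). Ankrd1 was highest at a mean of 618.1 TPM over the 6 libraries, followed by Ajuba at 327.4, Amotl2 at 237.2, Tead1 at 135.9 and Wwtr1 at 99.9 TPM. The ranges of these 5 genes over the libraries did not overlap. Tead2 at 61.3, Yap1 at 59.5 and Lats2 at 59.0 TPM had overlapping ranges, so their order is not resolved. Tead4 at 50.3 TPM was below Lats2 in every library, and Tead3 was last at 8.57 TPM, with 6.89 to 10.4 TPM over the libraries. The order depends on which length is used. Per coding length Ankrd1 stayed first at 601.5 TPM and Tead3 last at 13.3 TPM, but Tead1 came second at 455.2 TPM. By this length Yap1 at 121.3 TPM and Wwtr1 at 113.9 TPM had overlapping ranges over the 6 libraries. Within libraries, Yap1 was below Wwtr1 in every KO library and above it in every WT library.

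**Figure D4:**
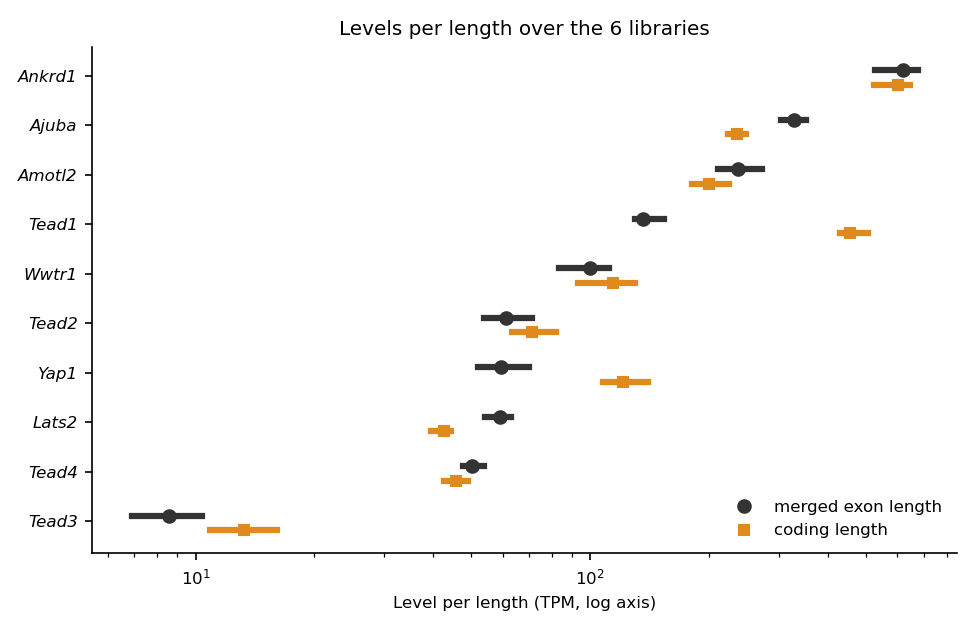
Level per length in TPM (x axis, log scale) of the 10 genes, with circles for merged exon length and squares for coding length. Symbols are means and bars run from the lowest to the highest of the 6 libraries; Ankrd1 is highest and Tead3 lowest by both lengths, and Tead1 differs most between them.

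The other genes of the pathway gave 10 calls among 46 tested regulators, 6 higher and 4 lower in KO, which is 21.7% beside 21% of all tested genes. Their median log2 fold change was -0.03. In the core kinase cassette (Stk3 and Stk4, the MST kinases, with Sav1, Lats1, Mob1a and Mob1b) edgeR, DESeq2 and limma-voom each called 0 of 6 genes. Mob1a, an activator of LATS kinases, was the 1 gene of these with an unadjusted p below 0.05, at 207.7 ± 15.6 CPM in KO and 243.4 ± 16.7 CPM in WT (SD, n = 3 each; edgeR adjusted p = 0.0675).

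Of the 10 kinases upstream of LATS, 4 rose and 6 did not pass the threshold, beside 12% of all tested genes higher in KO. Taok3, a kinase that can activate MST, rose to 85.9, 81.2 and 90.5 CPM in KO libraries, against 58.9, 65.8 and 52.6 CPM in WT libraries (log2 fold change 0.54 ± 0.09 SE, edgeR adjusted p = 0.00223, and 0.0708 without the Xist-positive libraries). Tnik, a MAP4K family kinase also known from Wnt signalling, rose to 11.1 ± 1.28 CPM in KO, against 7.06 ± 0.454 CPM in WT (SD, n = 3 each; log2 fold change 0.66, adjusted p = 0.00248). The groups were apart in both genes. Mink1 and Map4k2, of the same family, had smaller log2 fold changes of 0.34 and 0.30, with edgeR adjusted p-values of 0.0171 and 0.0372. The Map4k2 call ended with the replicate number as a block (adjusted p = 0.0502), with the Xist term (0.141), without the Xist-positive libraries (0.239) and without any 1 library other than WT replicate 3 (0.0521 to 0.122). The Mink1 call ended with the Xist term (0.187), without the Xist-positive libraries (0.285) and without KO replicate 3 (0.0798). Map4k4, the most abundant of these kinases per length, was at 494.8 ± 23.3 CPM in KO and 480.1 ± 36.4 CPM in WT.

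Among membrane and junction regulators 1 of 12 rose and 1 fell, or 16.7% called, beside 21% of all tested genes. Amotl1, an angiomotin like Amotl2, rose to 683.1, 646.4 and 631.8 CPM in KO libraries, against 541.2, 549.8 and 513.1 CPM in WT libraries (log2 fold change 0.29 ± 0.07 SE, edgeR adjusted p = 0.0191). Frmd6, a FERM protein at the membrane, fell to 150.5 ± 7.23 CPM in KO, against 181.5 ± 10.3 CPM in WT (SD, n = 3 each; adjusted p = 0.0247). The Amotl1 call ended without KO replicate 1 (0.0748), with the Xist term (0.0841) and without the Xist-positive libraries (0.155). The Frmd6 call ended without any 1 KO library (0.0574 to 0.111), with the Xist term (0.264) and without the Xist-positive libraries (0.364). Wwc1 (KIBRA), the most abundant of this group per length, was at 396.3 ± 12.9 CPM in KO and 447.1 ± 30.0 CPM in WT (adjusted p = 0.127). Of the LIM proteins related to Ajuba, Wtip fell to 9.37 ± 1.11 CPM in KO, against 15 ± 2.73 CPM in WT (log2 fold change -0.68 ± 0.14 SE, adjusted p = 0.00587), a call kept in all 16 alternatives. Limd1 was at 83.8 ± 5.14 CPM in KO and 92.8 ± 6.65 CPM in WT (adjusted p = 0.198).

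In the STRIPAK complex, which carries a phosphatase that turns MST kinases off, 1 gene of 9 was called, or 11.1% beside 21% of all tested genes. This gene, Mob4, fell to 70.7 ± 2.59 CPM in KO, against 88.9 ± 7.46 CPM in WT (SD, n = 3 each, edgeR adjusted p = 0.0138). Its adjusted p was 0.0713 without KO replicate 1, 0.072 without KO replicate 3, 0.159 with the Xist term and 0.244 without the Xist-positive libraries. The scaffold gene of the phosphatase, Ppp2r1a, was at 301.7 ± 16.6 CPM in KO and 319.0 ± 24.0 CPM in WT. Of the genes that mark YAP and TAZ for breakdown, the casein kinase gene Csnk1e rose (211.0 ± 5.00 CPM in KO, 172.2 ± 11.2 CPM in WT, adjusted p = 0.0169). That call ended without KO replicate 1 (0.071), KO replicate 3 (0.0552) or WT replicate 2 (0.0501), with the Xist term (0.109) and without the Xist-positive libraries (0.197). The F-box gene Fbxw11 was just inside the threshold (120.3 ± 8.04 CPM in KO, 141.0 ± 3.55 CPM in WT, adjusted p = 0.0444), a call lost in 12 of the 16 alternatives, with adjusted p up to 0.277, the value without the Xist-positive libraries. Csnk1d was at 166.4 ± 6.15 CPM in KO and 179.1 ± 9.73 CPM in WT.

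VGLL proteins compete with YAP and TAZ for TEAD. None of the 3 tested VGLL genes was called by edgeR, DESeq2 or limma-voom, and 0 had an unadjusted edgeR p below 0.05. Vgll4, the most abundant per length, was at 32.4 ± 2.86 CPM in KO and 33.1 ± 3.21 CPM in WT (SD, n = 3 each). Vgll2 had 0 reads in every library, which allows a level of up to 0.028 to 0.0349 CPM at 3 counts per library (counting error only).

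**Figure D5:**
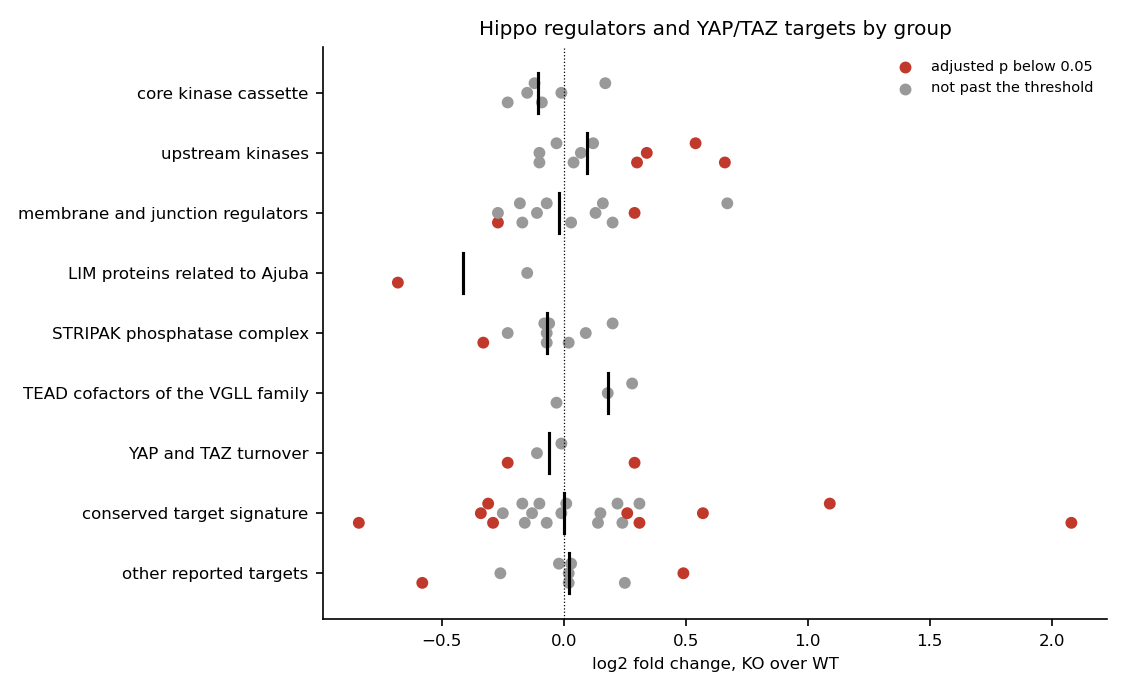
Log2 fold change (KO over WT, x axis) of the tested Hippo regulators and of reported YAP and TAZ targets, by group (y axis). Each point is a gene, coloured where the adjusted p is below 0.05, and bars are group medians; 4 upstream kinases lie to the right, and targets lie on both sides of a median near 0.

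Reported targets of YAP and TAZ moved in both directions. The list joined a 22-gene signature reported from human tumours with 8 other reported targets, and it includes Ankrd1, Amotl2 and Lats2. Of the 30 genes, 6 were higher and 5 lower in KO, or 36.7% beside 21% of all tested genes, with a median log2 fold change of 0.02. Without the 3 genes already described it was 11 of 27, with the same median.

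The genes of the matrix proteins CTGF and CYR61, widely used as readouts of YAP and TAZ, fell. Ccn2 (CTGF) had 1368.6, 1249.4 and 1265.4 CPM in KO libraries, against 1647.7, 1522.0 and 1573.6 CPM in WT libraries. Ccn1 (CYR61) had 691.8, 681.1 and 651.9 CPM in KO libraries, against 804.4, 811.8 and 898.7 CPM in WT libraries. Every KO library was below every WT library in both genes. The log2 fold changes were -0.29 ± 0.08 for Ccn2 and -0.31 ± 0.08 for Ccn1 (SE), with edgeR adjusted p-values of 0.0267 and 0.0173. With the Xist term these were 0.313 for Ccn2 and 0.199 for Ccn1, and without the Xist-positive libraries 0.411 for Ccn2 and 0.289 for Ccn1. The Ccn2 call also ended without WT replicate 2 (0.0527) and without any 1 KO library (0.0575 to 0.0877), and the Ccn1 call without KO replicate 1 (0.0659) and KO replicate 3 (0.062).

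Larger decreases were seen in Thbs1 and Tgfb2. Thbs1, the gene of the matricellular protein thrombospondin-1, had 3742.9, 3879.5 and 4460.3 CPM in KO libraries, against 6127.1, 5815.3 and 6176.9 CPM in WT libraries (log2 fold change -0.58 ± 0.10 SE, edgeR adjusted p = 0.00214). Tgfb2, a TGF-beta ligand, had 6.08, 5.58 and 7.73 CPM in KO libraries, against 10.6, 12.4 and 11.7 CPM in WT libraries (log2 fold change -0.84 ± 0.13 SE, adjusted p = 0.00154). Both kept their call and direction in all 16 alternatives. Ccdc80, a matrix protein gene, fell by 0.34 on the log2 scale (18.3 ± 0.142 CPM in KO, 23.2 ± 0.843 CPM in WT; SD, n = 3 each; adjusted p = 0.0129, but 0.0713 without KO replicate 1, 0.124 with the Xist term and 0.224 without the Xist-positive libraries).

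On the other side, Nt5e, the gene of the ecto-5′-nucleotidase CD73, had 34.2, 29.3 and 44.0 CPM in KO libraries, against 17.7, 16.7 and 16.2 CPM in WT libraries. It rose 2.12-fold (log2 fold change 1.09 ± 0.13 SE, edgeR adjusted p = 0.000331). Gadd45a, a stress-response gene, rose to 22.4 ± 1.94 CPM in KO, against 15.1 ± 0.734 CPM in WT (log2 fold change 0.57 ± 0.09 SE, adjusted p = 0.00217). Myc, a growth transcription factor, rose to 250.4, 226.9 and 250.7 CPM in KO libraries, against 158.6, 192.3 and 167.3 CPM in WT libraries (log2 fold change 0.49 ± 0.09 SE, adjusted p = 0.00302). Nt5e and Gadd45a kept their calls in all 16 alternatives, and Myc lost its call in 1 of them, without the Xist-positive libraries (adjusted p = 0.0605).

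Dock5, a guanine nucleotide exchange factor, rose by less (224.0 ± 12.9 CPM in KO, 186.5 ± 10.1 CPM in WT; SD, n = 3 each; edgeR adjusted p = 0.0292). Its call was lost in 6 of the 16 alternatives: without KO replicate 1, KO replicate 2, WT replicate 2 or WT replicate 3 (adjusted p from 0.0552 to 0.117), with the Xist term (0.092) and without the Xist-positive libraries (0.168). F3, the tissue factor gene, was the remaining call, with 1091.2, 855.2 and 874.1 CPM in KO libraries and 747.3, 779.8 and 742.4 CPM in WT libraries (adjusted p = 0.0432). Without KO replicate 1 its adjusted p was 0.151, without KO replicate 3 0.0559, without WT replicate 2 0.0817 and without WT replicate 3 0.0706.

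Foxf2, a forkhead factor of mesenchyme, was near the limit of detection, at 0.635, 0.389 and 0.356 CPM in KO libraries and 0.0926, 0.0941 and 0.135 CPM in WT libraries (log2 fold change 2.08 ± 0.35 SE, edgeR adjusted p = 0.0023). Of 8 tested fibroblast, pericyte and smooth muscle markers, 6 were higher in KO, beside 12% of all tested genes. The 9 listed markers summed to 109.2, 70.4 and 127.4 CPM in KO replicates 1 to 3, and to 65.2 to 89.4 CPM in WT libraries. KO replicate 2 thus lay within the WT range, and Dcn was below 0.2 CPM throughout. Acta2, the most abundant of them in CPM, was not called (edgeR adjusted p = 0.772). Endothelial markers summed to 25.3 to 34.6 CPM in KO libraries and 17.5 to 18.8 CPM in WT libraries, with 4 of 8 higher. Podocyte markers summed to 151.2 to 183.9 CPM in KO libraries and 94.1 to 97.3 CPM in WT libraries, with 4 of 6 higher. Most of each podocyte sum was Podxl, at 127.0 to 153.0 CPM in KO libraries and 77.5 to 80.6 CPM in WT libraries. Leukocyte markers summed to 41.3 to 49.8 CPM in KO libraries and 27.8 to 32.3 CPM in WT libraries, with 3 of 6 tested higher and Cd3e below 0.2 CPM. Of the tubular epithelial markers, 4 of 11 tested were also higher and 0 lower. The part of these cell types in the values of Foxf2, of the other targets and of the 10 genes was not tested. In bulk RNA a change in the number of cells of a type and a change in RNA per cell cannot be told apart.

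The genes whose log2 CPM over the 6 libraries most resembled 3 of the 10 genes were named from 10048 protein-coding genes with a mean of at least 5 CPM. For Yap1 they were Zwilch, Vkorc1l1 and Tmem70, with Pearson correlations of 0.999, 0.998 and 0.998 over 6 libraries. All 3 were lower in KO, with edgeR adjusted p-values of 0.00443, 0.0105 and 0.0144. For Wwtr1 they were Helz, Smarca2 and Lrch2 (0.992, 0.991 and 0.982), and none of these was called. For Ankrd1 they were Gstz1, Dnajc16 and Trim11 (0.990, 0.989 and 0.987), of which Trim11 was called lower (adjusted p = 0.0241). The 6 points share the split by genotype, so the correlations are a description.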

How the data were processed

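RNA was sequenced from 6 cultures, with group and replicate number taken from the sample titles. The deposited values are raw read counts, 1 file a library, with Ensembl gene IDs. Trimmomatic 0.38, STAR 2.7.1a, HTSeq 0.11.2 and mm10 are named per the submitters' processing notes. For annotation release and strandedness, not given in the sources used here, nothing was assumed, and overlapping or antisense genes may share reads. Exons of the 10 genes overlap other gene models by 1.25% (Yap1), 0.272% (Tead2) and 42.4% (Lats2), and the transcripts of Tead3 and Tead4 share few 50-base stretches (0.144% and 0.272%).

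GENCODE M21 (GRCm38, the assembly of mm10) matched 48144 of 48526 gene IDs. The quasi-likelihood test of edgeR 4.0.16 (R 4.3.3; filterByExpr, TMM, genotype as the term) ran over 17571 genes, with Benjamini-Hochberg adjusted p below 0.05 as the threshold. SE was taken as |log2 fold change|/√F. CPM uses TMM-scaled library sizes, and TPM uses merged exon length. Replicate pairs differed by a chi-square of 22.7 to 77.1 per degree of freedom. Figures were drawn with matplotlib 3.10.9.

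The alternatives comprised a block for replicate number, 3 other scalings, 2 other filters, DESeq2 1.42.0, limma-voom (limma 3.58.1), Xist status (cut at 10 CPM) in the model, dropping the Xist-positive libraries, and dropping each library. The 10 genes, the lists and the tests were chosen with earlier results of these data known. Named genes were the 10, then from each regulator and target group up to 4 called genes per direction by adjusted p and the most abundant gene by TPM, and the 3 genes most correlated with Yap1, Wwtr1 and Ankrd1; F3 and the VGLL gene at 0 reads were named after their values were seen. Setd2, Xist and the marker genes are named as checks. 1 gene that this rule names is not reported here.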

Additional observations from a re-analysis of the deposited data

How the results depend on the processing

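Of the 10 genes, DESeq2 and limma-voom each called 1 (Yap1). The edgeR test called the same gene with the replicate number as a block and under each of the other 3 scalings and both other filters. It called 0 with the Xist term and 0 without the Xist-positive libraries (2 and 0 with an unadjusted p below 0.05), and leaving out single libraries gave 0 to 4 calls, the 4 being Yap1, Wwtr1, Tead2 and Tead3 without WT replicate 1. The regulators had 10 calls, with 3 under the Xist term, 2 without the Xist-positive libraries and 4 to 11 without single libraries. The targets had 11 calls, with 6 without the Xist-positive libraries and 6 to 12 without single libraries. Calls over all genes numbered 3698, with 1163 under the Xist term, 907 without the Xist-positive libraries and 1683 to 3766 without single libraries. With the Xist-positive libraries left out, the lone KO library is assumed to vary like the WT group, and fewer samples and residual degrees of freedom enter. Same-numbered libraries were not paired by the data: their deviations from the group means correlated at 0.042, -0.146 and 0.032. With the replicate number as a block, 3594 genes, 1 of the 10 genes, 8 regulators and 11 targets were called. Per coding length, 2 of the 10 genes kept their rank by level. No named gene changed its sign while called. Tead1 and Amotl2, never called, ranged from -0.09 to 0.02 and from -0.11 to 0.12 on the log2 scale. Read counts were low in some listed genes, such as Foxf2 (8 to 56 per library) and Vgll2 (0), and the effect of depth was not tested.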
